A study of Mus musculus with 12 samples.

Results

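The genes described here are 7 that are known as outputs of the circadian clock in heart and other tissues: Tcap, Usp2, Wee1, Por, Cdkn1a, Kcnip2 and Spon2. They were chosen by name with their measured TPM in the prednisone and vehicle libraries known, and were found by symbol in a table of transcript levels whose rows were summed to genes. All 7 were present among 33641 gene symbols, and all 7 passed the filter on low values (at least 1 TPM in at least 3 of 12 libraries), which kept 13158 genes. TPM, the unit of the table, gives each transcript's share of a library after division by its length, so that levels of different genes can be set side by side. Each gene was read against Dbp and Arntl in the same library.

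RNA was measured in myocardium of 12 wild-type C57BL/6 males, 3 to a group. The 4 groups were sham surgery with vehicle, sham surgery with prednisone, myocardial infarction (MI) with vehicle, and MI with prednisone. Prednisone, a synthetic glucocorticoid, was given by intraperitoneal injection at 1 mg/kg once a week for 6 weeks, at lights-on, in mice about 10 weeks old when dosing began and about 16 weeks old at the end. Dosing began 2 weeks after surgery in all groups, the drug was carried in saline from a DMSO stock, and hearts were collected 24 hours after the final injection. The labels describe neither the infarction procedure nor the part of the ventricle sampled, and give no clock time of collection for single mice.

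In the circadian clock of mammals, the proteins encoded by Arntl (BMAL1) and Clock bind E-boxes and drive genes that include Dbp, Nr1d1 and the Per and Cry repressors. Nr1d1 and Nr1d2 encode repressors of Arntl, so Dbp and Arntl RNA normally run close to antiphase through the day. DBP and its relatives Tef and Hlf, opposed by Nfil3, act through D-boxes on further genes, and glucocorticoids can shift clocks in peripheral tissues.

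The members have unrelated roles. Tcap encodes titin-cap (telethonin), which joins titin molecules at the sarcomere's Z-disc. Usp2 encodes a ubiquitin-specific protease. Wee1 encodes a kinase that holds back mitosis by phosphorylating Cdk1, and Cdkn1a encodes p21, an inhibitor of cyclin-dependent kinases and a textbook glucocorticoid receptor and p53 target. Por encodes cytochrome P450 oxidoreductase, which passes electrons from NADPH to P450 enzymes, squalene epoxidase and haem oxygenase. Kcnip2 encodes KChIP2, a subunit of the channels of the transient outward potassium current, and Spon2 encodes the secreted matrix protein spondin 2 (mindin).

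Usp2 and Kcnip2 each produced several coding transcripts in these hearts, and the stretches in which those transcripts differ are shown because the transcripts did not move together. Coordinates are GRCm38 and the bases were read from GENCODE M21 transcripts, written on the strand of the gene. In the first pair, capitals mark the start codon. Usp2-202 begins its coding sequence in an exon of its own (chr9:44085189-44085335, plus strand). Usp2-201 and Usp2-203 share another start exon upstream (chr9:44075407-44076222, plus strand, 816 coding bases, of which the first 147 are printed).
Usp2-202: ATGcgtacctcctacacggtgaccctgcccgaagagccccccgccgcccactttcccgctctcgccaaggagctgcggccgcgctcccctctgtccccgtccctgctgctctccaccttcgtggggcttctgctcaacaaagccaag
Usp2-201: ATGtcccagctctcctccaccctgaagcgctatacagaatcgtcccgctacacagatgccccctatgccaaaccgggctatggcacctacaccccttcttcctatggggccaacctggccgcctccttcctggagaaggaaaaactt
The coding sequence had 1857 bases in Usp2-201 and Usp2-203 and 1188 in Usp2-202. In Kcnip2 the difference lies in whole coding exons, so no base is in capitals. The exon of 54 bases (chr19:45796279-45796332, minus strand) is part of Kcnip2-209 and absent from Kcnip2-202 and Kcnip2-208. The exon of 96 bases (chr19:45797091-45797186, minus strand) is part of Kcnip2-209 and Kcnip2-202 and absent from Kcnip2-208.
Kcnip2 54-base exon: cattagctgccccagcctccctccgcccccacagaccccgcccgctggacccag
Kcnip2 96-base exon: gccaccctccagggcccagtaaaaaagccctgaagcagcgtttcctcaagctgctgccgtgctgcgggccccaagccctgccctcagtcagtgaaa
The coding sequence had 810 bases in Kcnip2-209, 756 in Kcnip2-202 and 660 in Kcnip2-208.

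The RefSeq promoter table (GRCm38.p6) held 4 of the 7 members, Usp2, Por, Cdkn1a and Kcnip2, together with Dbp and Arntl. The window of Usp2, which lies beside the annotated start of Usp2-202, is shown because Usp2 and Dbp were both lower, in TPM, in every prednisone library than in every vehicle library. It covers the 250 bases upstream of the start site (chr9:44084670-44084919, plus strand).
Usp2 promoter: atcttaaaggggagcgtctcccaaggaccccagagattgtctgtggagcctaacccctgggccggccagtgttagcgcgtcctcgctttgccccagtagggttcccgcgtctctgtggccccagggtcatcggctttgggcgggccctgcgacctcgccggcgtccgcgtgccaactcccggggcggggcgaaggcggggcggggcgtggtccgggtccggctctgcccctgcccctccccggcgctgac
On both strands of these 250-base windows a search was made for the E-box CACGTG (held by 6.02% of 32851 promoter windows), the related CACGTT (3.85%), the D-box TTATGTAA or TTACGTAA (0.931%), the ROR element TAGGTCA or TGGGTCA (5.38%) and the glucocorticoid element, GNACA and TGTNC with 3 bases between them (0.387%). None of these motifs contains another. None of these letters occurred in the windows of Usp2, Por, Cdkn1a, Kcnip2, Dbp or Arntl.

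The 7 ventricular cardiomyocyte markers (Myh6 and others) summed to between 22570 and 37820 TPM in every library and skeletal muscle markers summed to at most 18.5 TPM. MI vehicle replicate 3 stood apart: it had 14307 genes at 1 TPM or more against at most 12772 elsewhere, its scaling factor was 1.65 against at most 1.14, and its macrophage markers summed to 1063 TPM. The median of all genes differed by -0.41 (log2 scale) between prednisone and vehicle in MI and by 0.39 between MI and sham with vehicle, so changes in these comparisons are set beside those medians. Median-ratio rescaling of the libraries removed the shifts. Fibroblast marker sums were 889.8 to 1150 TPM in MI vehicle and 304.7 to 516.3 TPM in the other 9 libraries, and no listed marker of any cell type was at 0 in all libraries. In bulk tissue, fewer cells of a type and less RNA per cell cannot be told apart. No source gives the number of reads per library, so the spread over 3 mice sets the precision throughout.

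The reference genes came first. Dbp had 75.2, 82.8 and 86.5 TPM in sham vehicle and 70.2, 72.1 and 81.9 TPM in MI vehicle. It had 7.73, 6.61 and 5.44 TPM in sham prednisone and 5.93, 5.95 and 4.84 TPM in MI prednisone. All 6 prednisone libraries lay far below all 6 vehicle libraries. Arntl had 1.87, 2.40 and 1.46 TPM in sham vehicle and 10.4, 8.90 and 12.4 TPM in sham prednisone. After MI it had 2.90, 3.75 and 8.26 TPM with vehicle and 7.47, 8.65 and 8.45 TPM with prednisone. In sham hearts the 2 treatments were well apart in Arntl, whereas after MI vehicle replicate 3 lay within the prednisone range.

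**Figure D1:**
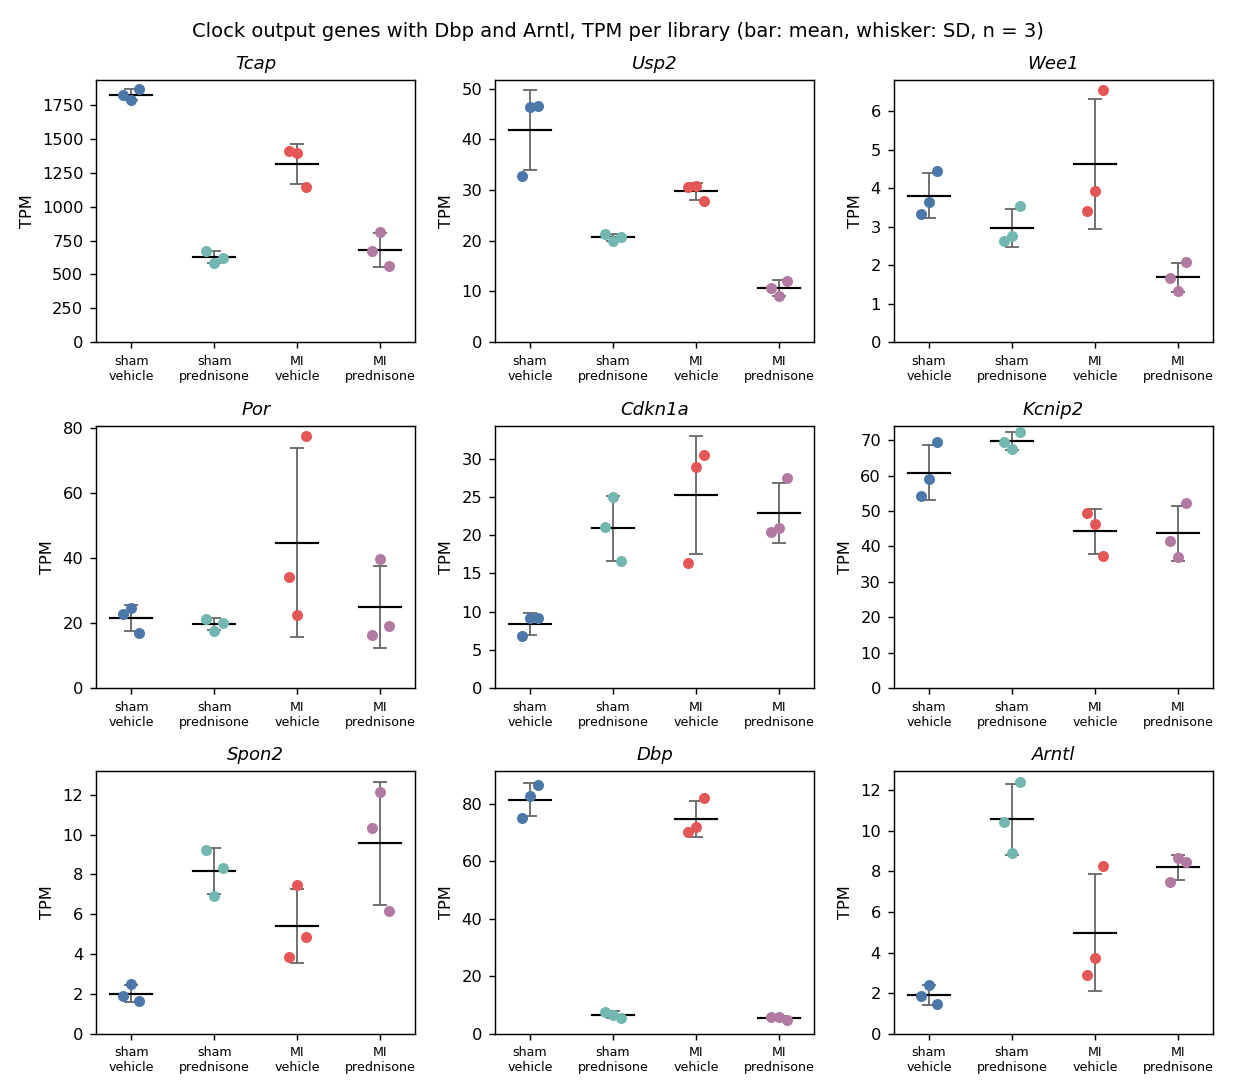
TPM (linear axes from 0) of the 7 clock output genes, Dbp and Arntl in each of 12 libraries, with group means (bars) and SD (whiskers), n = 3 per group. On this scale, without rescaling, Tcap, Usp2 and Dbp were lower in all 6 prednisone libraries than in all 6 vehicle libraries, while Cdkn1a was lowest in sham vehicle and Kcnip2 was lower in both MI groups than in both sham groups.

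Because the members were named with their prednisone response known, their prednisone differences, and the difference of those between MI and sham, are a description and support nothing. The MI minus sham comparisons below use the same libraries, so their p-values are not independent of that choice either. Gene lists set beside the members were also chosen with earlier results of these data known. The counts that follow stand only beside their background. In sham hearts 3 of the 7 were past an adjusted p of 0.05 in limma (Usp2 and Tcap lower, Spon2 higher), where 0.114% of all genes passed, 0.0532% as higher and 0.0608% as lower. The libraries of 4 did not overlap, as for 18.2% of all genes. Leaving out 1 mouse at a time gave 1 to 2 members there. After rescaling Tcap and Spon2 passed in sham and Usp2 did not, where 16 of 13117 genes passed. After MI 4 passed (Tcap, Usp2 and Wee1 lower, Spon2 higher), where 37.4% of all genes passed, 2.5% as higher and 34.9% as lower. The libraries of 3 did not overlap after MI, as for 46.2% of all genes. Of the genes passing after MI, 4588 were lower and 329 higher, and after rescaling 1863 were lower and 1917 higher. Among the members Usp2 and Wee1 then passed as lower and Spon2 as higher, while Tcap did not pass.

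Tcap, the structural member, was by far the most abundant. Sham libraries had 1825, 1789 and 1874 TPM with vehicle against 673.2, 586.6 and 620.9 TPM with prednisone. There were 1410, 1395 and 1150 TPM in MI vehicle against 671.9, 813.5 and 564.7 TPM in MI prednisone. The vehicle libraries fell into a sham and an MI level that did not overlap, while the 2 prednisone groups shared one range. After rescaling MI vehicle replicate 3 (696.0 TPM) lay within the prednisone range of 600.9 to 841.3 TPM. The prednisone minus vehicle difference was -1.55 (log2, SE 0.13) in sham and -0.96 (SE 0.13) in MI, the latter -0.50 after rescaling.

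With vehicle, Tcap was lower in MI than in sham by 0.48 (log2 change -0.48, SE 0.13, limma adjusted p = 0.0389), or -0.92 after rescaling (adjusted p = 0.0365). Leaving out MI vehicle replicate 3 gave -0.38 (adjusted p = 0.105), and leaving out any 1 sham vehicle mouse or MI vehicle replicate 2 also ended the call (adjusted p up to 0.135). Ventricular cardiomyocyte markers moved with it, from 31850 to 33640 TPM in sham vehicle to 22570 to 28250 TPM in MI vehicle. Per 1000 TPM of those markers Tcap measured 57.3, 55.6 and 55.7 TPM in sham vehicle and 50.04, 49.4 and 50.9 TPM in MI vehicle, groups that still did not overlap. On that scale it measured 18.0 ± 2.25 TPM in sham prednisone and 20.2 ± 2.96 TPM in MI prednisone (SD, n = 3). With prednisone the MI minus sham difference in Tcap was 0.11 (log2, SE 0.13, limma adjusted p = 0.624).

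A list of Tcap's partners at the Z-disc, proteins that anchor titin and actin, had 10 tested genes. None passed between prednisone and vehicle in sham, and their median difference was 0.19 (log2) beside 0.07 for all genes. After MI, Pdlim5 (-0.84, SE 0.19, limma adjusted p = 0.00767) and Nexn (-0.52, SE 0.18, adjusted p = 0.0419) were lower with prednisone, where 34.9% of all genes passed as lower. The list median there was -0.22 beside -0.41 for all genes. After rescaling 2 genes of this list passed in the higher direction and none in the lower. With vehicle, 1 of the 10 fell in MI, the titin gene Ttn (-0.67, SE 0.20, limma adjusted p = 0.048), where 0.904% of all genes passed as lower. With prednisone 3 fell in MI, where 14.1% of all genes passed as lower. These were Nexn (-0.95, SE 0.18, limma adjusted p = 0.00579), Mypn (-0.57, SE 0.13, adjusted p = 0.0156) and Ldb3 (-0.54, SE 0.14, adjusted p = 0.0253), and after rescaling Nexn alone.

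Usp2 had 32.8, 46.3 and 46.5 TPM in sham vehicle and 21.4, 19.9 and 20.7 TPM in sham prednisone. After MI it had 30.5, 30.9 and 27.8 TPM with vehicle and 10.7, 9.06 and 12.1 TPM with prednisone. No neighbouring groups overlapped: the order from MI prednisone through sham prednisone and MI vehicle to sham vehicle held library by library in TPM. After rescaling it did not, since MI vehicle replicate 3 (16.9 TPM) then lay below all 3 sham prednisone libraries (20.1 to 22.2 TPM). The prednisone minus vehicle difference was -0.97 (log2, SE 0.15) in sham and -1.41 (SE 0.15) in MI, and the median gene differed by 0.07 and -0.41.

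Between the prednisone groups, Usp2 fell in MI relative to sham by 0.91 (log2 change -0.91, SE 0.15, limma adjusted p = 0.00306), in a comparison where 16.8% of all genes passed and the median gene differed by -0.06. With vehicle the change was -0.46 (SE 0.15, adjusted p = 0.0535), and it passed after rescaling (-0.89, adjusted p = 0.0338). Of 19 ubiquitin-specific proteases, a list that includes Usp2, no other gene passed between prednisone and vehicle in sham hearts. After MI 12 of the 19 passed between prednisone and vehicle, 11 of them lower, where 37.4% of all genes passed, 34.9% as lower. Usp1 was at -1.50 (SE 0.35, limma adjusted p = 0.00834) and Usp25 at -1.18 (SE 0.20, adjusted p = 0.00218). After rescaling 6 passed in the lower direction and 3 in the higher.

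The Usp2 transcripts differed in how they followed the gene. Usp2-201 had 17.1, 17.4 and 19.4 TPM in sham vehicle, 8.83, 8.995 and 8.61 TPM in sham prednisone, 13.5, 13.9 and 11.9 TPM in MI vehicle, and 7.84, 7.72 and 8.77 TPM in MI prednisone. The 2 prednisone groups were nearly level in this transcript, which carries the long coding sequence. Usp2-202, with its own start exon, had 10.9, 12.97 and 15.7 TPM in sham vehicle and 5.51, 6.26 and 3.41 TPM in sham prednisone. It had 10.7, 12.02 and 9.99 TPM in MI vehicle but 1.02, 0.65 and 2.44 TPM in MI prednisone. The low Usp2 total of MI prednisone hearts relative to sham prednisone hearts therefore lay outside Usp2-201.

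As shares of the gene, Usp2-201 took 43.8% ± 7.64 in sham vehicle, 42.7% ± 2.25 in sham prednisone, 44.1% ± 1.18 in MI vehicle and 76.9% ± 7.23 in MI prednisone (SD, n = 3). Usp2-202 took 31.7%, 24.6%, 36.6% and 12.3% in the same order. When every transcript was tested, an alternative added after the data were seen, Usp2-202 was lower in MI than in sham with prednisone by 1.39 (log2 change -1.39, SE 0.27, limma adjusted p = 0.00459). Usp2-203, which shares the start exon of Usp2-201 but is shorter, was lower too (-1.42, SE 0.20, adjusted p = 0.0008). Usp2-201 was not (-0.11, SE 0.12, adjusted p = 0.55). In that comparison 22.3% of 27769 transcripts passed. Usp2-201 has 3867 bases, Usp2-202 has 2057 and Usp2-203 has 2122, and the part of transcript length in these differences was not tested.

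**Figure D2:**
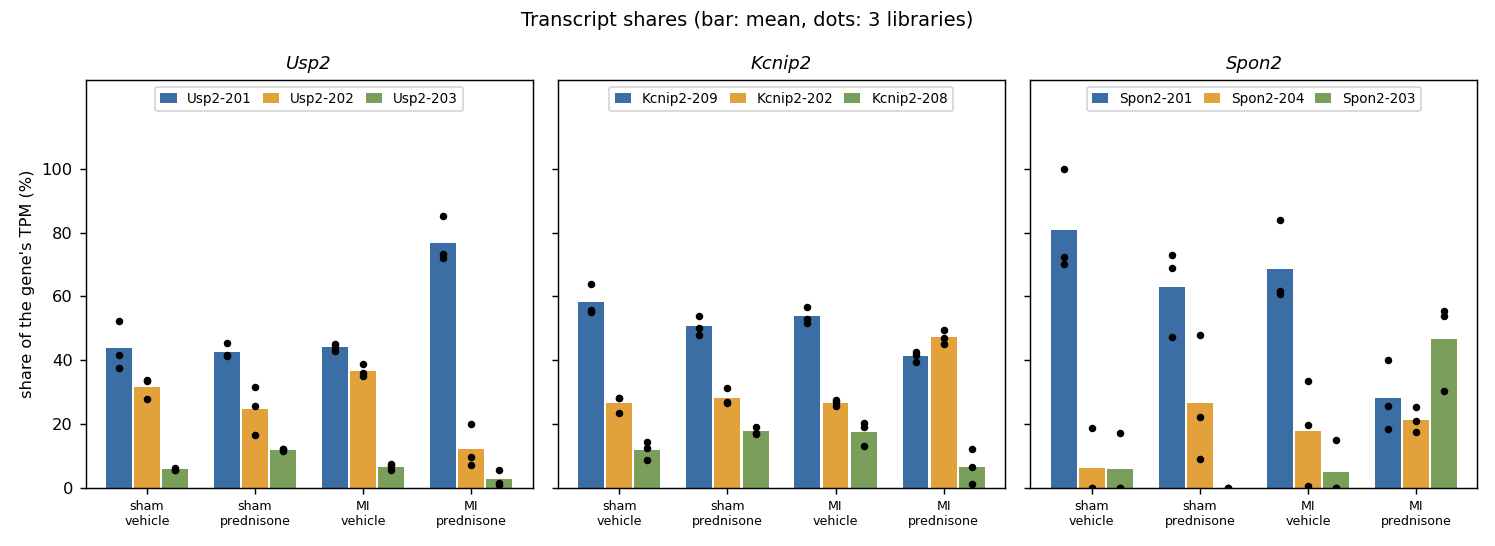
Share of each gene's TPM (percent, axis from 0) taken by the 3 named transcripts of Usp2, Kcnip2 and Spon2 in each group, with bars for means and dots for the 3 libraries. In MI prednisone Usp2-201 averaged 76.9%, Kcnip2-202 rose above Kcnip2-209 (47.2% and 41.2%), and the retained-intron transcript Spon2-203 averaged 46.6%.

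The 2 members that restrain the cell cycle went different ways. Wee1, the member with the lowest mean level, had 3.32, 3.64 and 4.45 TPM in sham vehicle and 2.62, 2.77 and 3.54 TPM in sham prednisone, which overlapped. It had 3.42, 3.92 and 6.55 TPM in MI vehicle and 1.65, 1.32 and 2.08 TPM in MI prednisone, which did not. MI prednisone was thus the one group set below all others. Wee1 differed between prednisone and vehicle by -0.27 (log2, SE 0.21) in sham and -1.04 (SE 0.21) in MI, or -0.68 in MI after rescaling.

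With vehicle, the MI minus sham change in Wee1 was 0.20 (log2, SE 0.21, limma adjusted p = 0.458), which turned to -0.036 without MI vehicle replicate 3 and to -0.17 after rescaling. With prednisone the MI minus sham difference was -0.57 (SE 0.21, adjusted p = 0.0924), and it passed after rescaling (-0.50, adjusted p = 0.0376). An antisense gene overlaps Wee1, and whether quantification used strand is not given in the sources used here.

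Cdkn1a had 6.74, 9.20 and 9.21 TPM in sham vehicle and 21.0, 25.02 and 16.6 TPM in sham prednisone. After MI it had 16.4, 28.9 and 30.5 TPM with vehicle and 20.4, 20.9 and 27.5 TPM with prednisone. Sham vehicle was low by itself, and the other 3 groups overlapped. The prednisone minus vehicle difference was 1.21 (log2, SE 0.24) in sham, and -0.10 (SE 0.24) in MI, where its sign changed to 0.34 after rescaling and to 0.053 without MI vehicle replicate 3.

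With vehicle, Cdkn1a rose in MI relative to sham by 1.45 (log2, SE 0.24, limma adjusted p = 0.00804), or by 1.03 after rescaling (adjusted p = 0.0299) and 1.29 without MI vehicle replicate 3 (adjusted p = 0.0223). It was lost when only these 6 libraries were fitted (adjusted p = 0.0905). Fibroblast and macrophage marker sums rose in the same libraries, macrophages from 176.1 to 269.8 TPM in sham vehicle to 431.2 to 1063 TPM in MI vehicle, and their part in the result was not tested. With prednisone the MI minus sham difference in Cdkn1a was 0.13 (SE 0.24, adjusted p = 0.751).

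Among 17 tested genes of the G2/M transition and of Cdk inhibition, none passed between prednisone and vehicle in sham hearts. After MI 5 of the 17 passed, all lower with prednisone, where 34.9% of all genes passed as lower. They were led by Ccnb1 (cyclin B1, -1.68, SE 0.57, limma adjusted p = 0.0395), Ccnd2 (cyclin D2, -1.12, SE 0.16, adjusted p = 0.00124) and Cdkn1b (p27, -0.89, SE 0.22, adjusted p = 0.011). With vehicle 3 rose in MI, where 15.1% of all genes passed as higher. These were Trp53 (1.08, SE 0.32, adjusted p = 0.0457), Ccnd2 (0.79, SE 0.16, adjusted p = 0.0164) and Ccnd1 (0.64, SE 0.18, adjusted p = 0.0377), and none passed after rescaling. The list's median change there was 0.74 beside 0.39 for all genes. After rescaling, 18 genes of the list were tested and 3 were lower and 1 higher with prednisone after MI.

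Glucocorticoid receptor targets, a list of 14 that includes Cdkn1a, likewise had no gene past the threshold between prednisone and vehicle in sham, 24 hours after the final injection. After MI 8 of the 14 passed and all were lower with prednisone, where 34.9% of all genes passed as lower. Among them were Klf9 (-1.82, SE 0.24, limma adjusted p = 0.000858), Per1 (-1.65, SE 0.34, adjusted p = 0.00461) and Mt2 (-1.53, SE 0.23, adjusted p = 0.00138). After rescaling 5 passed, all lower.

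Por had 22.9, 24.7 and 16.9 TPM in sham vehicle, 21.2, 17.6 and 19.9 TPM in sham prednisone, 34.2, 22.3 and 77.6 TPM in MI vehicle, and 16.3, 39.6 and 19.0 TPM in MI prednisone. The groups overlapped in TPM, except that every sham prednisone library lay below every MI vehicle library. Single MI libraries set the MI means. Por differed between prednisone and vehicle by -0.12 (log2, SE 0.40) in sham and -0.73 (SE 0.40) in MI, or -0.25 in MI without MI vehicle replicate 3. The MI minus sham change with vehicle was 0.85 (SE 0.40, limma adjusted p = 0.129) and 0.37 without that library.

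The 2 libraries with the most Por, MI vehicle replicate 3 and MI prednisone replicate 2, also had the highest sums of the 4 adipocyte markers, 434.7 and 192.8 TPM, and of the 2 brown adipocyte markers, 181.2 and 196.5 TPM. The other 10 libraries had 4.22 to 174.1 TPM and 17.7 to 72.2 TPM. The part of fat tissue in the Por values was not tested. Of 12 genes whose products accept electrons from Por or transfer them beside it, none passed between treatments in sham. After MI 5 of the 12 were lower with prednisone, where 34.9% of all genes passed as lower. Cyp1b1 was at -1.33 (SE 0.22, limma adjusted p = 0.00178) and Hmox1 at -1.15 (SE 0.22, adjusted p = 0.00369). After rescaling 2 passed there, both lower. With vehicle 4 rose in MI, where 15.1% of all genes passed as higher, and 3 after rescaling, where 494 of 13117 genes did. The 4 included Cyp1b1 (1.61, SE 0.22, limma adjusted p = 0.00513) and the cholesterol synthesis gene Sqle (1.24, SE 0.33, adjusted p = 0.034). Sqle was the gene lost after rescaling (limma adjusted p = 0.0501).

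Kcnip2 had 54.1, 59.0 and 69.5 TPM in sham vehicle and 69.4, 67.4 and 72.3 TPM in sham prednisone. It had 49.4, 46.2 and 37.2 TPM in MI vehicle and 41.5, 37.1 and 52.3 TPM in MI prednisone. The gene's total split by surgery, not by treatment: every MI library lay below every sham library in TPM. After rescaling MI prednisone replicate 3 (60.05 TPM) lay above sham vehicle replicate 2 (58.8 TPM). The prednisone minus vehicle difference was 0.20 (log2, SE 0.15) in sham and -0.02 (SE 0.15) in MI, the latter 0.42 after rescaling.

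With prednisone, Kcnip2 fell in MI relative to sham by 0.68 (log2 change -0.68, SE 0.15, limma adjusted p = 0.0112), although the call was lost after rescaling (-0.57, adjusted p = 0.108), with a correction for transcript length (-0.65, adjusted p = 0.105) and without MI prednisone replicate 2 (adjusted p = 0.0534). With vehicle the change was -0.45 (SE 0.15, adjusted p = 0.0579), -0.34 (adjusted p = 0.168) without MI vehicle replicate 3 and -0.89 after rescaling (adjusted p = 0.0528). It passed without MI vehicle replicate 1 (-0.54, adjusted p = 0.0273). Per 1000 TPM of ventricular cardiomyocyte markers Kcnip2 measured 1.87 ± 0.19 TPM in sham vehicle, 1.99 ± 0.11 in sham prednisone, 1.68 ± 0.06 in MI vehicle and 1.30 ± 0.27 in MI prednisone (SD, n = 3). On that scale the vehicle groups overlapped and the prednisone groups did not. The 4 atrial cardiomyocyte markers summed to 1982 to 2686 TPM in sham prednisone and 4335 to 6173 TPM in MI prednisone. With vehicle they summed to 845.2 to 2487 TPM in sham and 2802 to 4106 TPM in MI. Only 1 of these 4 markers changed upward between MI and sham with vehicle (list median -0.78, log2). With prednisone all 4 changed upward (list median 0.75), and 1 of them passed. Their part in the values of Kcnip2 and of the potassium channel genes was not tested.

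Of the genes of repolarising potassium channels 9 were tested. With prednisone 5 of the 9 fell in MI relative to sham, where 14.1% of all genes passed as lower. They were led by Kcnd2 (-1.25, SE 0.21, limma adjusted p = 0.00341), which encodes a pore subunit that KChIP2 binds. The inward rectifier genes Kcnj12 (-0.80, SE 0.19, adjusted p = 0.0161) and Kcnj2 (-0.76, SE 0.18, adjusted p = 0.0172) came next. After rescaling 2 fell there. With vehicle none passed. There 3 fell after rescaling, Kcnd2 among them (-0.92, limma adjusted p = 0.0477), where 494 of 13117 genes passed as lower. None passed between prednisone and vehicle in sham. After MI 1 was lower with prednisone, Kcnd2 (-0.66, SE 0.21, limma adjusted p = 0.0283), where 34.9% of all genes passed as lower, and none was after rescaling.

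Although the gene's total changed little with prednisone after MI, its transcripts did not keep their shares. Kcnip2-209 took 58.2% ± 4.87 in sham vehicle, 50.6% ± 3.04 in sham prednisone, 53.8% ± 2.62 in MI vehicle and 41.2% ± 1.49 in MI prednisone (SD, n = 3). Kcnip2-202, which lacks the exon of 54 bases, took 26.7%, 28.2%, 26.6% and 47.2% in that order. In TPM, Kcnip2-202 went from 12.6, 12.4 and 10.2 in MI vehicle to 19.5, 18.4 and 23.6 in MI prednisone, without overlap. Kcnip2-208, which lacks both exons, went from 9.41, 6.11 and 7.53 to 2.71, 0.39 and 6.35.

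With every transcript tested, Kcnip2-209 was lower in MI than in sham among prednisone hearts (-0.95, SE 0.16, limma adjusted p = 0.0021), as was Kcnip2-208 (-1.99, SE 0.46, adjusted p = 0.0105), whereas Kcnip2-202 changed by 0.05 (SE 0.16, adjusted p = 0.849). Kcnip2-208 has 693 bases against 2395 in Kcnip2-209 and 2302 in Kcnip2-202.

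Spon2 was scarce, with 1.89, 2.48 and 1.64 TPM in sham vehicle and 9.23, 6.93 and 8.32 TPM in sham prednisone. After MI it had 3.85, 7.48 and 4.88 TPM with vehicle and 10.3, 12.2 and 6.17 TPM with prednisone. The sham groups stood apart, and the MI groups overlapped through MI vehicle replicate 2 and MI prednisone replicate 3. Spon2 differed between prednisone and vehicle by 1.61 (log2, SE 0.25) in sham and 0.71 (SE 0.25) in MI. After rescaling the MI groups no longer overlapped (2.95 to 6.59 TPM with vehicle and 7.08 to 12.6 TPM with prednisone).

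With vehicle, Spon2 rose in MI relative to sham by 1.06 (log2, SE 0.25, limma adjusted p = 0.0238), a call kept without MI vehicle replicate 3 (1.10, adjusted p = 0.0447). It was lost after rescaling (0.72, adjusted p = 0.0892) or length correction (0.64, adjusted p = 0.134), without sham vehicle replicate 1 or 3 or MI vehicle replicate 2 (adjusted p = 0.0884, 0.10 and 0.0525), and in a fit of these 6 libraries alone (adjusted p = 0.116). Fibroblast markers rose in the same comparison, 7 of 7, and their part in the result was not tested. With prednisone the MI minus sham difference was 0.17 (SE 0.25, adjusted p = 0.705).

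The spondin and thrombospondin list, which includes Spon2, had 6 tested genes. Of these 5 rose in MI with vehicle, where 15.1% of all genes passed as higher. They were led by Thbs4 (2.94, SE 0.27, limma adjusted p = 0.00147) and Thbs1 (2.16, SE 0.40, adjusted p = 0.0113), which encode matrix glycoproteins. Of the list 2 rose after rescaling. After MI 4 were lower with prednisone, where 34.9% of all genes passed as lower. The 4 included Thbs1 (-2.03, SE 0.40, limma adjusted p = 0.00374) and Thbs2 (-1.33, SE 0.15, adjusted p = 0.00058), while Spon2 was the one called higher. After rescaling 2 were lower and Spon2 alone was higher.

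The Spon2 total mixed transcripts of different kinds. The coding transcript Spon2-201 had 1.33, 2.48 and 1.19 TPM in sham vehicle, 6.36, 5.05 and 3.94 TPM in sham prednisone, 3.23, 4.55 and 3.01 TPM in MI vehicle, and 2.65, 2.24 and 2.48 TPM in MI prednisone. The MI prednisone libraries lay below the MI vehicle libraries in TPM and overlapped with them after rescaling (2.32 to 2.97 TPM and 1.82 to 4.01 TPM). The retained-intron transcript Spon2-203 had 5.73, 6.56 and 1.88 TPM in MI prednisone and at most 0.73 TPM in any other library. The coding transcript's prednisone difference was 1.21 (log2, SE 0.22) in sham and -0.40 (SE 0.22) in MI, where the median of all genes was -0.41. Between the prednisone groups Spon2-201 was lower in MI than in sham (-0.81, SE 0.22, limma adjusted p = 0.0251 over all transcripts).

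For the genes with several transcripts, the share of the most abundant one was compared between MI and sham within each treatment by a two-sided exact permutation test with 400 arrangements, whose smallest possible p was 0.005. The mean difference was 17.2 percentage points for Usp2-201 (exact p = 0.05, adjusted over the 4 tests 0.0667) and -6.95 for Kcnip2-209 (exact p = 0.015, adjusted 0.06). For Usp2-201 it averaged 0.26 points with vehicle and 34.2 with prednisone, so the shift lay in the prednisone hearts. For Kcnip2-209 the 2 values were -4.5 and -9.4. The mean difference was -23.6 for Spon2-201 (-12.1 with vehicle and -35.0 with prednisone, exact p = 0.035, adjusted 0.0667). For Por-201 it was 2.59 (0.82 with vehicle and 4.35 with prednisone, exact p = 0.5). None of the 4 passed at 0.05 after adjustment.

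**Figure D3:**
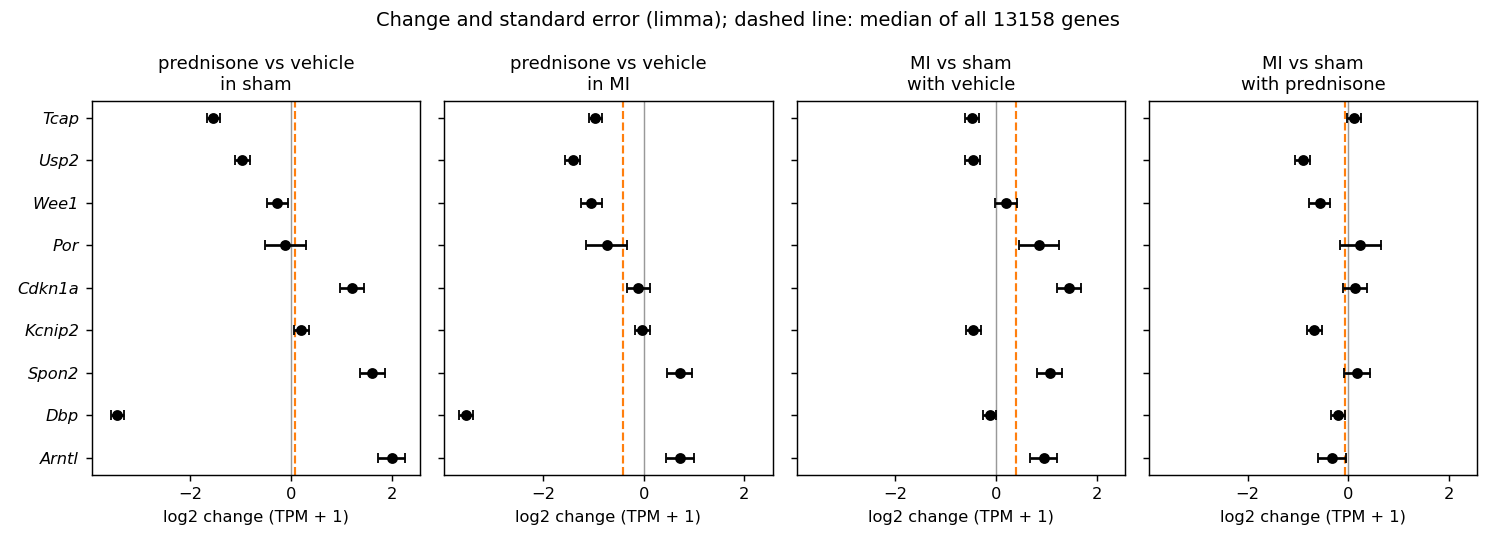
Log2 change on the TPM + 1 scale with its standard error (limma, 12 libraries) for the 7 members, Dbp and Arntl in 4 comparisons, with a dashed line at the median of all 13158 genes. Dbp stood at -3.45 and -3.53 in the prednisone comparisons. The lowest members there were Tcap and Usp2 in sham, and Usp2 and Wee1 in MI. Cdkn1a was the highest member between MI and sham with vehicle.

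Counted over the infarction comparisons, 3 of 7 members passed with vehicle (Cdkn1a and Spon2 higher, Tcap lower), where 16% of all genes passed, and the libraries of 5 did not overlap, as for 45% of all genes. By direction, 15.1% of all genes passed as higher and 0.904% as lower. After rescaling the members that passed were Cdkn1a higher and Tcap and Usp2 lower, where 494 of 13117 genes passed in each direction. With prednisone 2 of 7 passed, Usp2 and Kcnip2, both lower, where 16.8% of all genes passed, 14.1% as lower and 2.73% as higher. The libraries of 3 members did not overlap in that comparison, as for 45.2% of all genes. The members were chosen with these libraries known, so these counts too are a description.

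The difference between the prednisone values after MI and in sham is built from the values the members were chosen with, so it is given without a test. It was 0.59 (log2, SE 0.19) for Tcap and -1.32 (SE 0.34) for Cdkn1a, beside a median of -0.48 over all genes. The Tcap value was 1.14 after rescaling and 0.49 without MI vehicle replicate 3. The Cdkn1a value was -0.80 after rescaling and -1.16 without that library. In limma's interaction term 2 of 7 members passed, where 21.3% of all genes passed, 0.54% as higher and 20.7% as lower, and nothing is read from that count.

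Set against Dbp in the same library, the members parted into those that fell short of its change and those that did not follow it. This parting describes levels only. Hearts were not collected as a series through the day, so the part of daily phase or amplitude in the parting was not tested. Dbp differed between prednisone and vehicle by -3.45 (log2, SE 0.13) in sham and -3.53 (SE 0.13) in MI. No member matched that size, and Tcap per unit of Dbp therefore went from 22.5 ± 1.51 in sham vehicle to 96.6 ± 15.1 in sham prednisone (SD, n = 3). Usp2 per unit of Dbp went from 0.51 ± 0.07 to 3.19 ± 0.55 in sham and from 0.40 ± 0.05 to 1.95 ± 0.51 in MI. In TPM, Tcap and Usp2 were the only members in which all 6 vehicle libraries lay on one side of all 6 prednisone libraries, as they did in Dbp. After rescaling this no longer held for Tcap and Usp2, because MI vehicle replicate 3 fell within the prednisone range of each. It then held for Dbp, for Arntl (at most 5.00 TPM with vehicle, at least 8.38 TPM with prednisone) and, among the members, for Spon2. Rescaled Spon2 was at most 6.59 TPM with vehicle and at least 7.08 TPM with prednisone.

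Spon2 and Arntl were both higher with prednisone. Spon2 per unit of Arntl was 1.06 ± 0.06 in sham vehicle, 0.78 ± 0.11 in sham prednisone, 1.31 ± 0.70 in MI vehicle and 1.17 ± 0.38 in MI prednisone (SD, n = 3). The ratio did not overlap between the sham groups (1.01 to 1.13 and 0.67 to 0.89) and spanned 0.59 to 2.00 in MI vehicle. Arntl itself differed by 1.99 (log2, SE 0.27) in sham and 0.72 (SE 0.27) in MI, beside 1.61 and 0.71 for Spon2. Cdkn1a per unit of Arntl went from 4.59 ± 1.51 to 2.06 ± 0.74 in sham, and in MI from 5.69 ± 2.02 to 2.80 ± 0.42. The 12 libraries fall into separate clusters in Dbp, so no correlation of a member with Dbp or Arntl was tested.

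**Figure D4:**
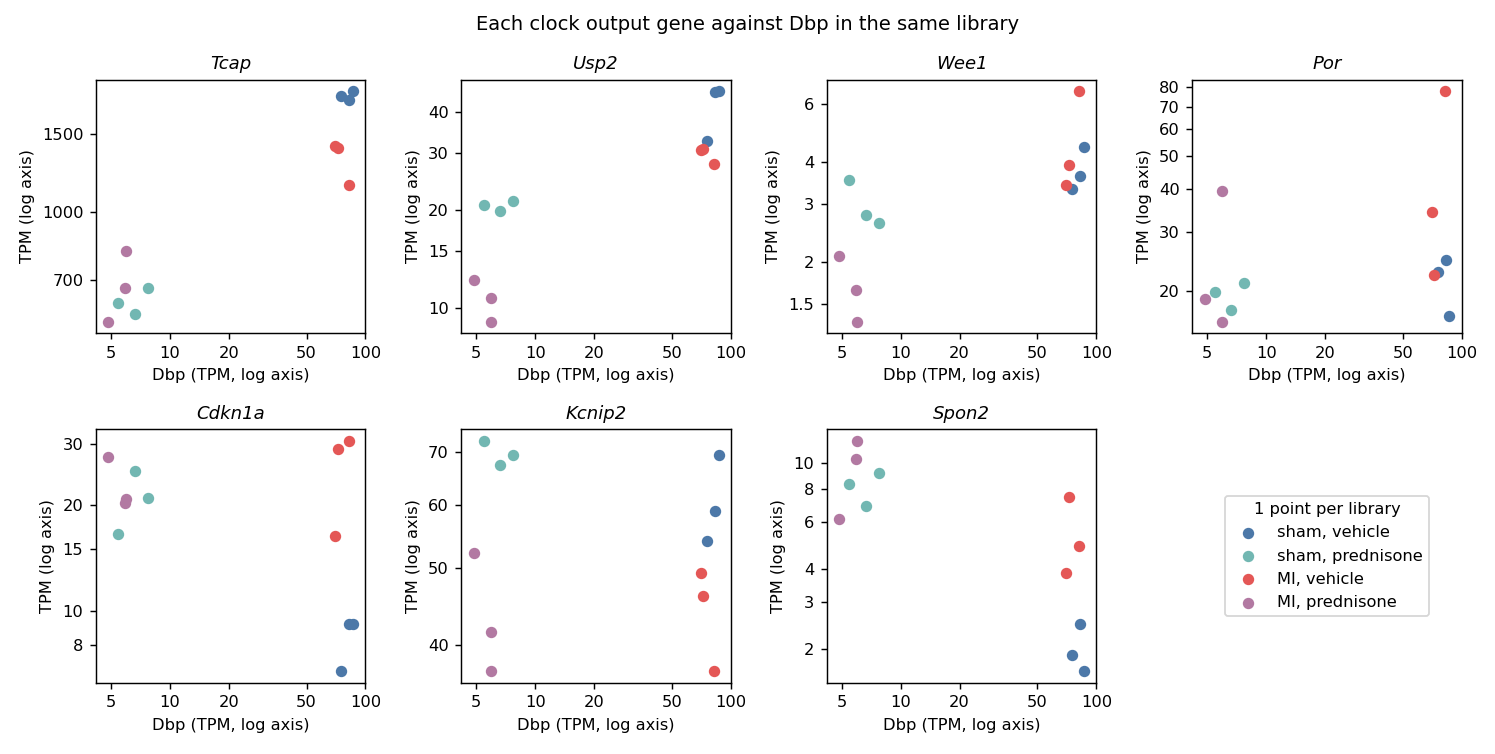
TPM of each of the 7 genes (log axis) against Dbp TPM (log axis), 1 point per library, colours for the 4 groups. Dbp forms 2 clusters, 4.84 to 7.73 TPM with prednisone and 70.2 to 86.5 TPM with vehicle. Without rescaling, Tcap and Usp2 separate with them, while Por, Cdkn1a and Kcnip2 overlap across the clusters.

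Other clock genes are given as a description, because these lists too were chosen with earlier results of these data known. Of 22 core clock genes, 7 passed between prednisone and vehicle in sham, 5 lower and 2 higher, where 0.114% of all genes passed. Nfil3, the D-box repressor, was at 1.74 (log2, SE 0.12, limma adjusted p = 0.000123). After MI 17 were lower and 1 higher, where 34.9% of all genes passed as lower and 2.5% as higher. Nr1d1 was at -2.25 (SE 0.13, limma adjusted p = 9.17e-06) and Nr1d2 at -2.02 (SE 0.13, adjusted p = 1.15e-05). After rescaling 14 of the 22 were lower and 4 higher. Of 17 other clock outputs tested, 1 passed in sham, Coq10b, which serves coenzyme Q function (-0.92, SE 0.15, adjusted p = 0.0437). After rescaling Coq10b did not pass in sham (limma adjusted p = 0.112), and Tspan4 alone did (-1.06, adjusted p = 0.0349). After MI 9 of the 17 were lower with prednisone, Pfkfb3 (-1.45), Tspan4 (-1.30) and Coq10b (-1.22) by the most, but after rescaling 2 were lower and 1 higher. No gene of that list passed between MI and sham with vehicle, but 4 fell there after rescaling, where 494 of 13117 genes passed as lower. They were Ucp3 (-1.30, limma adjusted p = 0.0396), Kcnh2 (-0.76, adjusted p = 0.019), Dgat2 (-0.68, adjusted p = 0.0299) and Nampt (-0.67, adjusted p = 0.0281). With prednisone 5 of that list fell in MI, where 14.1% of all genes passed as lower, and 3 after rescaling.

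As a description over the 12 libraries, which share groups and scaling, the genes most like each member were sought among 8116 genes averaging 5 TPM or more, by Pearson's r of log2(TPM + 1). Tcap was most like Adamtsl4 (r = 0.957), Dbp (0.948) and Tef (0.934). Usp2 was most like Rhobtb1 (0.966), Nr1d2 (0.958) and Pim3 (0.937), and Wee1 like Stag2 (0.969), Cnot7 (0.961) and Rnf141 (0.952). Of these, Dbp, Tef and Nr1d2 are core clock genes. The members were chosen with their prednisone values known and Dbp splits the libraries by treatment, so nothing is read from these likenesses.

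Por was most like Net1 (0.978), Mettl7a1 (0.966) and Aifm2 (0.963). Cdkn1a was most like Nes (0.939), Hsph1 (0.917), a heat shock gene, and Gm14295 (0.913). Kcnip2 was most like Slc25a3 (0.974), the mitochondrial phosphate carrier, Efcab2 (0.974) and Lrrc14b (0.963). Spon2 had the loosest neighbours, P2rx5 (0.882), Prob1 (0.877) and Inpp5j (0.871). Among the members themselves the closest were Tcap and Usp2 (0.811) and Usp2 and Wee1 (0.808), while Spon2 ran opposite to Usp2 (-0.82) and Tcap (-0.81).

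In the genome (GRCm38), the members lie on 6 chromosomes: Tcap at chr11:98383811-98384953, Usp2 at chr9:44067021-44095627, Wee1 at chr7:110122046-110143286 and Cdkn1a at chr17:29090976-29100727. Kcnip2 lies at chr19:45791839-45816061 on the minus strand. Por (chr5:135670033-135735326) and Spon2 (chr5:33198184-33218455, minus strand) share chromosome 5. The nearest tested genes on either side of Tcap, Stard3 and Pgap3, passed in no comparison, with Stard3 at -0.40 (log2, SE 0.19) and Pgap3 at 0.03 (SE 0.16) between prednisone and vehicle in sham. Those of Usp2, Thy1 and Rnf26, passed in none either.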

How the data were processed

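Stranded mRNA libraries of myocardium from 12 mice were quantified by the authors. Trimmomatic, HISAT2, kallisto and the build mm10 are named in the submitters' processing notes, with no versions or roles. The deposited TPM values (unit TPM, per the file headers and column totals of 1000000) form 1 table of 105129 transcript rows. TPM keeps no read depth, so no counting error could be attached. Groups and replicate numbers came from the sample titles.

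Rows sharing a symbol were summed, a gene was kept where 3 or more libraries reached 1 TPM, and log2(TPM + 1) was fitted with limma 3.58.1 in R 4.3.3 (trend, 4 group means, Benjamini-Hochberg adjustment within each comparison, threshold 0.05). Changes on this scale understate those of low genes. Shares of transcripts were tested in Python 3.11.15 with scipy 1.17.1. The procedure was tested on simulated data. The labels do not say that replicates were separate litters or batches, so p-values measure the spread between these mice. Transcript structure came from GENCODE M21 (94.7% of rows matched by identifier) and promoters from RefSeq.

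The members and all gene lists were chosen with earlier results of these data known. Named genes are the members, Dbp, Arntl, the called genes of a list with the largest changes in a comparison (up to 3) and the 3 genes most like each member; nearest genes and single transcripts were named after their values were seen. Alternatives were median-ratio rescaling, no filter, no trend, a pseudocount of 0.1, the most abundant transcript per gene, a replicate block, a transcript-length correction (loess, span 0.5, lengths for 99.7% of tested genes) with and without that block, fits of 2 groups only, leaving out each mouse, and, added after the data were seen, a test of every transcript. Permutation tests of 3 against 3 mice cannot reach p = 0.05 and were not used for single genes.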

Additional observations from a re-analysis of the deposited data

Results flagged for a closer look

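In the interaction term 2 members passed, where 21.3% of all genes passed, 0.54% as higher and 20.7% as lower, and nothing is read from that count. The difference between the prednisone values after MI and in sham was 0.59 on the log2 scale for Tcap and -1.32 for Cdkn1a. The median over all genes was -0.48. The members were chosen with their prednisone values known, so these are descriptions and not independent tests. After median-ratio rescaling the values were 1.14 and -0.80. Tcap vehicle means were 1829 TPM in sham and 1318 TPM in MI, and Cdkn1a vehicle means were 8.38 TPM in sham and 25.3 TPM in MI, while the 2 prednisone groups overlapped in both genes.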

How the results depend on the processing

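The number of genes called moved by over 1.5 times under several settings. Between prednisone and vehicle in sham it was 15, and 7 with the replicate block and 6 with that block and the length correction. Between prednisone and vehicle in MI it was 4917, and 2161 with length correction, 1442 with length correction and block, and 808 with only the 2 groups. Between MI and sham with vehicle it was 2100, and 988 after rescaling (494 higher and 494 lower), 1068 with no filter, 1056 with the block, 741 with length correction, 95 with both and 2 with only the 2 groups. Between MI and sham with prednisone it was 2213 (359 higher and 1854 lower), and 3412 after rescaling (1532 higher and 1880 lower) and 1018 with length correction and block. For the interaction it was 2797 (71 higher and 2726 lower), and 1328 after rescaling (677 higher and 651 lower), 275 with length correction and 98 with length correction and block.

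Counts of members between treatments, between MI and sham and in the interaction are descriptions. Of the 7 members, 3 were called between treatments in sham, and 1 each with no filter, no trend, the block or length correction and 0 with length correction and block; 4 were called in MI, and 2 with only the 2 groups. Between MI and sham with vehicle 3 were called, and 1 with no filter, 5 with the most abundant transcript, 0 with length correction and block and 0 with only the 2 groups. With prednisone 2 were called, and 1 with length correction and 0 with length correction and block. In the interaction 2 were called, and 1 each after rescaling, with no filter or with no trend, and 0 with length correction, with or without the block.

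Leaving out 1 mouse in turn gave 4 to 9 genes and 1 to 2 members between treatments in sham, 3245 to 6274 genes in MI, 120 to 5631 genes and 1 to 5 members between MI and sham with vehicle, 1027 to 2630 genes and 1 to 2 members with prednisone, and 1111 to 4520 genes and 0 to 4 members in the interaction.

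Some signs reversed, and the cause was not tested. Cdkn1a between treatments in MI was 0.34 after rescaling, 0.010 with its most abundant transcript and 0.25 with length correction, with or without the block, and Kcnip2 there was 0.42, and 0.37 with length correction. The Kcnip2 interaction was 0.31 after rescaling and 0.23 with length correction, and that of Usp2 0.083 and 0.11, and 0.32 with its most abundant transcript. Wee1 between MI and sham with vehicle was -0.17 after rescaling and -0.23 with length correction. With prednisone, Tcap was -0.11 with length correction, and Spon2 -0.81 with its most abundant transcript, which gave -0.40 between treatments in MI. Leaving out 1 mouse in turn gave, in MI against sham with prednisone, -0.015 to 0.27 for Cdkn1a, -0.14 to 0.47 for Por, -0.015 to 0.42 for Spon2 and -0.023 to 0.24 for Tcap, and for Wee1 with vehicle -0.036 to 0.35. Between treatments in MI it gave -0.37 to 0.053 for Cdkn1a and -0.16 to 0.084 for Kcnip2.

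Same-numbered libraries did not deviate together (mean r of 0.003, -0.25, -0.37 and -0.05 in the 4 comparisons), so the numbers do not pair the mice. With the replicate block Wee1 passed between MI and sham with prednisone (-0.57, limma adjusted p = 0.0405). The block ended the call of Tcap between MI and sham with vehicle (adjusted p = 0.0554). Depth is unknown, so low levels such as those of Wee1 and Spon2 carry no counting error.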
